A study of Mus musculus with 40 samples.

Results

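Histone H3 trimethylated at lysine 4 (H3K4me3) was examined at the peaks that lie away from annotated promoters in cultured mouse oligodendrocyte progenitor cells (OPCs). A peak was taken as distal when every GENCODE transcript start on its autosome was more than 5000 bp from its edge. Distal peaks of the 10 H3K4me3 libraries were merged, and a merged region was kept when at least 2 libraries had a distal peak there, which gave 10931 distal regions. All autosomal H3K4me3 peaks, merged separately in the same way, gave 29934 regions, the set behind the shares of all autosomal H3K4me3 regions below. A distal region can be part of a longer region in that set. A further 8209 distal regions came from 1 library only and were left out. The rule used position and recurrence, not peak height, width, sequence or genotype.

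The study compared OPCs that carry the H3.3 K27M histone mutation with OPCs that do not, in cultures made from brainstem and from dorsal telencephalon, which the labels call cortex. Tissue came from AMGFAP-Cre;K27M litters at postnatal day 5 to 7 on an FVB background and was pooled by brain region and genotype, so a culture is a pool of mice and not 1 animal. In these mice Cre recombinase under the human GFAP promoter switches on the knocked-in K27M allele in neural progenitors and their descendants, and controls were littermates. All cultures, control and K27M, were purified by immunopanning for PDGFRa and kept undifferentiated in proliferation medium. There were 2 brainstem cultures (59 and 61) and 3 telencephalon cultures (59, 60 and 61) per genotype, and each culture had 1 H3K4me3 and 1 H3K27me3 library. Control and K27M cultures of the same origin and number were treated as a matched pair. A peak in such a mixture of cells cannot tell a mark on few cells from a weak mark on many.

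H3K4me3 is laid down around active and poised transcription starts by SET1 and MLL complexes, which are drawn to CpG-rich DNA, and the mark is therefore used to locate promoters. Lower and narrower H3K4me3 also appears at enhancers, at promoters that a given annotation lacks, and at genes of RNA polymerase III such as tRNA genes. H3K27me3 is the mark of Polycomb repressive complex 2 (PRC2), and H3 K27M inhibits that complex. Regions with both marks are called bivalent.

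Sequence is shown for examples of kinds of region described below, not for the typical distal region. Each is the central 300 bases of a region, read 5′ to 3′ from RefSeq's GRCm38.p6 assembly, the same build as mm10, with every CpG dinucleotide in capitals. Every 300-base window shown held more CpGs than the median of distal regions, 1.67 per 100 bp. The first had an H3K4me3 peak in all 10 libraries and lies 5803 bp from the start of 1520401A03Rik, and its window held 53 CpGs.
Downstream of 1520401A03Rik, chr17:23699539-23699838, plus strand: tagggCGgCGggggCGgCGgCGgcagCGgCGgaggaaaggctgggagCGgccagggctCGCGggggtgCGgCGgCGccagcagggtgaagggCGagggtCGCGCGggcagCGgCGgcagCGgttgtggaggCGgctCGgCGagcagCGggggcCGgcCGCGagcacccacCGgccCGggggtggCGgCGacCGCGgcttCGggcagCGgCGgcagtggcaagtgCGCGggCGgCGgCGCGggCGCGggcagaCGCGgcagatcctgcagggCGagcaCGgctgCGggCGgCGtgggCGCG
The next region also had a distal peak in all 10 libraries and lies in an intron of Igf1r, the insulin-like growth factor 1 receptor gene, with 13 CpGs in its window.
Igf1r intron, chr7:68129163-68129462, plus strand: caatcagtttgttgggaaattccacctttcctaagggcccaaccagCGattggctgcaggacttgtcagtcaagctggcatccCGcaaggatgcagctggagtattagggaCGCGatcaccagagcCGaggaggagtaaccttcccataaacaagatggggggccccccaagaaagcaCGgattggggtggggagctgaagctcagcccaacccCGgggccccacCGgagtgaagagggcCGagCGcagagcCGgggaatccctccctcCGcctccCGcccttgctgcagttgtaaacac
A pair of regions, shown for the difference between brain regions, had a peak in every library of one origin and in none of the other, the first in telencephalon cultures (16 CpGs) and the second in brainstem cultures (13 CpGs).
Near Gm38139, chr3:154647142-154647441, plus strand: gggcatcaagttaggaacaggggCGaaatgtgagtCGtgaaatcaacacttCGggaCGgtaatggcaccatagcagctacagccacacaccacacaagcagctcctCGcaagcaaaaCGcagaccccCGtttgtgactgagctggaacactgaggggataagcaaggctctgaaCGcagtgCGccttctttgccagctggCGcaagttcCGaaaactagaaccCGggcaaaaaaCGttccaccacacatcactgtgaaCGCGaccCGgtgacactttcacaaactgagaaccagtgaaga
Pdzrn4 intron, chr15:92441905-92442204, plus strand: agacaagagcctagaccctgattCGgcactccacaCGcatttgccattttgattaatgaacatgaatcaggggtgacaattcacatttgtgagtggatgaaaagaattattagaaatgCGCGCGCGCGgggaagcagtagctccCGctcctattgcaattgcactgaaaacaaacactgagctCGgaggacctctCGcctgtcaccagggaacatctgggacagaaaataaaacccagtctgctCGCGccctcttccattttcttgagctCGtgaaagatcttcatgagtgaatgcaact
The next had a peak in every K27M library and in no control library and held 7 CpGs.
Fign intron, chr2:64075209-64075508, plus strand: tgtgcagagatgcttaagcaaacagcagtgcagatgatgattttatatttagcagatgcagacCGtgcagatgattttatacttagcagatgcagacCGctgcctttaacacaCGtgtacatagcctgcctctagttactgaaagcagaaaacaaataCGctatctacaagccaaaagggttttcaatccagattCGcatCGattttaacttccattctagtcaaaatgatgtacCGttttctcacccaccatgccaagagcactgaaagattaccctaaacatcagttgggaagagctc
The last sequence is a whole tRNA gene that lies inside a distal region and is absent from the GENCODE starts, written on the strand of the gene, with the letters of the internal B box, part of the binding site of transcription factor TFIIIC, in capitals.
n-TEttc6 (tRNA-Glu), chr14:76152774-76152845, plus strand: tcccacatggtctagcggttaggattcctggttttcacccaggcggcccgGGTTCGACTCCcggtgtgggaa

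The deposited files are peak lists and hold no read counts. The libraries held 20279 to 30413 autosomal H3K4me3 peaks and 3620 to 10502 distal peaks each, 70606 distal peaks of 255528 in all. OPC markers fixed for the check (Pdgfra, Cspg4, Olig1, Olig2, Sox10, Ptprz1 and Gpr17) had an H3K4me3 peak within 1000 bp of a start in all 10 libraries. Of the 5 microglial markers 4 had none in any library and P2ry12 had one in 8, and of the 4 endothelial markers 3 had none and Cldn5 had one in 5. Of the 5 astrocyte markers 2 (Slc1a2 and Gja1) were marked in all 10 libraries, and of the 5 neuronal markers 4 were marked in all 10 and Stmn2 in 9. Of the 5 markers of maturing oligodendrocytes, Cnp was marked in all 10 and the other 4 in none, and of the 5 fibroblast and mural markers Col1a1 was marked in all 10 and Lum and Dcn in none. The part of other cell types in the distal regions was not tested. The telencephalon controls overlapped unevenly. Distal regions of culture 59 overlapped those of cultures 60 and 61 with Jaccard indices (shared regions over regions in either) of 0.265 and 0.289, while cultures 60 and 61 gave 0.590. The culture 59 control library had 0.561 with the K27M library of its own culture. With telencephalon K27M cultures 60 and 61 it had 0.412 and 0.418, and with brainstem libraries 0.394 to 0.442. Read totals are stated by the study and not repeated here. By their order the telencephalon control culture 59 library was the most deeply sequenced of the H3K4me3 libraries, with one of the shorter peak lists. Across all libraries peak number therefore did not simply follow depth. Within each matched pair, however, the library with more reads had the longer list, with nearly equal totals in telencephalon culture 61. An effect of depth on the comparison of genotypes was not tested. By the study's duplicate counts, most reads of telencephalon control culture 60 were duplicates, the largest share among the H3K4me3 libraries. Telencephalon control culture 61 had the next largest share. These libraries also had the highest promoter-proximal fold enrichments, and an effect of duplicates on them was not tested.

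Most distal regions lay inside genes. In GENCODE 5414 of the 10931 (49.5%) were intronic, 4523 (41.4%) were intergenic and 994 (9.09%) touched an exon. Their median distance to the nearest start was 17022 bp (quartiles 9088.5 and 34183 bp), and 1614 lay more than 50000 bp away. Their median width was 934 bp, and they covered 12.3 Mb in all. The nearest start belonged to a protein-coding gene for 5692 regions and to a processed pseudogene for 1369. Of the 2666 protein-coding genes whose body held a distal region, 91.7% had an H3K4me3 peak within 1000 bp of a start in at least 2 libraries, beside 66.03% of all 20779 autosomal protein-coding genes.

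The 3 regions nearest to the limit on the inside lay 5001 bp from a start of Tcf20, Nudt3 and Zfp362, with median fold enrichments of 5.68, 3.84 and 10.5. The 3 nearest on the outside lay 4976, 4968 and 4958 bp from a start of Gm46332, Vapb and Nrxn3, with medians of 5.39, 3.22 and 5.20.

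Distal peaks were lower and narrower than peaks within 5000 bp of a start. Fold enrichment, the height of a peak over its input as the authors' peak caller gave it, had a median of 3.25 to 5.01 over the distal peaks of a library and 3.64 to 36.2 over its promoter-proximal peaks. On the log2 scale the distal median was lower by 1.86 ± 0.894 (SD, n = 10 libraries), a ratio of 0.275, and it was lower in 10 of 10 libraries (two-sided exact sign-flip permutation test, p = 0.00195, the smallest this test can give). The libraries differed most in their promoter-proximal peaks: telencephalon control culture 59 had a median of 3.64 there and telencephalon control culture 60 one of 36.2, while their distal medians were 3.31 and 5.01. Median width was 482.5 to 597 bp for distal peaks and 1222 to 1758 bp for promoter-proximal peaks, a ratio of 0.340, and distal peaks were narrower in 10 of 10 libraries (same exact permutation test, p = 0.00195).

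**Figure D1:**
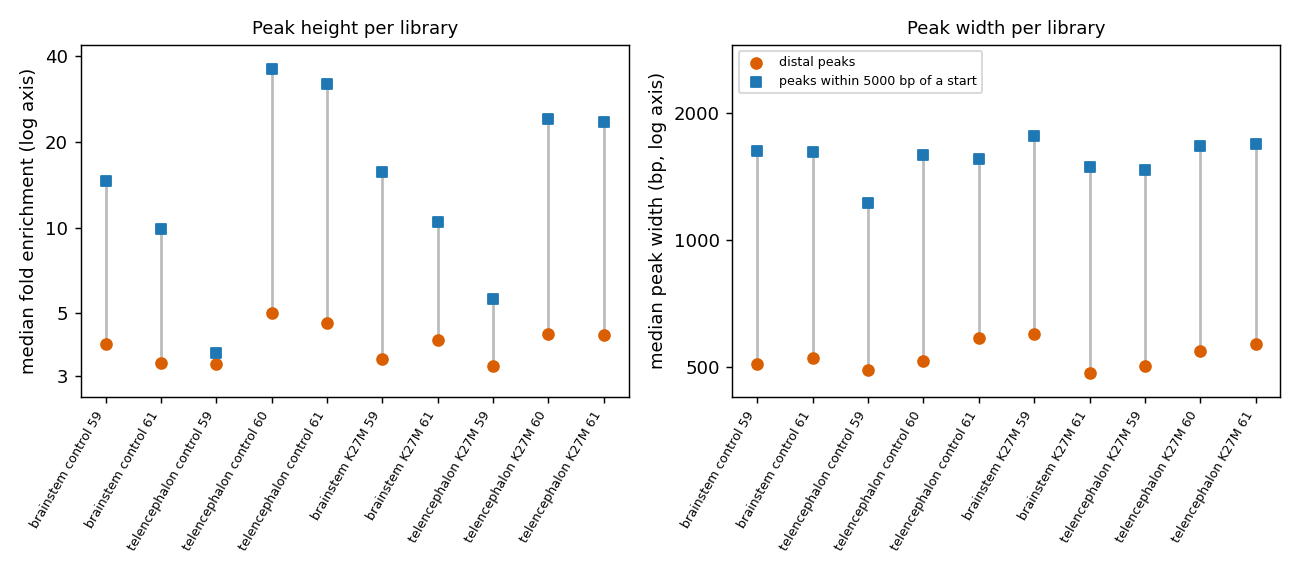
Median fold enrichment (left) and median width in bp (right) of distal peaks (circles) and of peaks within 5000 bp of a transcript start (squares) in each of the 10 H3K4me3 libraries, both on log axes, with no error bars. Distal medians stay between 3.25 and 5.01 while promoter-proximal medians run from 3.64 to 36.2.

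The regions ranged from those seen in few libraries to those seen in all. A library counted as having a peak at a region when any of its H3K4me3 peaks overlapped it by at least 1 bp, which matters for the 386 regions where a longer peak of some library reached within 5000 bp of a start. On that count 2459 regions had a peak in 2 libraries and 1304 (11.9%) in all 10, against 46.2% of all autosomal H3K4me3 regions. Regions in all 10 libraries were higher and wider than those in 2, with a median fold enrichment of 6.95 against 3.61 and a median width of 1638 against 581 bp. These are descriptions, since height, width and the chance of being called in many libraries go together.

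Sequence composition, which the rule did not use, changed along the same order. The central 300 bases of distal regions held a median of 1.67 CpGs per 100 bp and 49.0% GC, against 4.00 and 56.3% in the 19350 promoter-proximal regions. A window with at least 50% GC and an observed over expected CpG ratio of at least 0.6 was called CpG island-like. This held for 778 distal regions (7.12%) and 39.6% of promoter-proximal regions. Among distal regions it was 3.46% of those in 2 libraries and 22.0% of those in all 10.

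**Figure D2:**
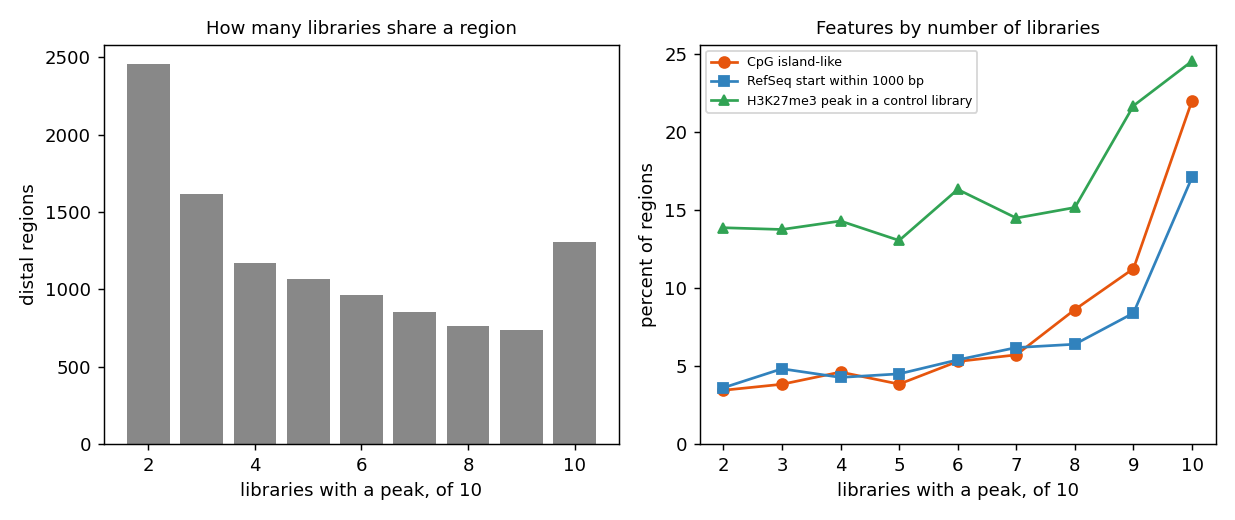
Number of distal regions by how many of the 10 libraries had a peak (left), and the percent of those regions that were CpG island-like, had a RefSeq start within 1000 bp, or had an H3K27me3 peak in a control library (right). Regions in all 10 libraries are 1304, more than the 738 in 9, and have the highest value of all 3 features.

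Motifs rich in CpG were less frequent in distal than in promoter-proximal regions. The letters were searched on both strands of the central 300 bases and in the 31396 autosomal RefSeq promoters of 300 bases. The GC box GGGCGGG was in 7.79% of distal regions, 20.5% of promoter-proximal regions and 25.8% of RefSeq promoters. The ETS letters CCGGAAG were in 2.34%, 5.68% and 9.004%. The order turned for the SOX letters ACAAAG, in 29.0% of distal regions, 18.4% of promoter-proximal regions and 18.6% of RefSeq promoters, and for the AP-1 letters TGANTCA, in 9.19%, 5.52% and 7.84%. The core motif of CTCF was in 0.796%, 0.827% and 0.933%. A match is a description of the letters and not a binding site.

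The 10 highest regions with a distal peak in all libraries had median fold enrichments of 21.0 to 24.6. The highest was a 27727 bp region downstream of the start of Lncppara, a long noncoding RNA gene, at chr15:85662824-85690550, which is also the widest of all. Control libraries from brainstem (cultures 59 and 61) had fold enrichments of 16.1 and 14.2 there, those from telencephalon (59, 60 and 61) had 5.20, 97.3 and 71.6, and the K27M values were 29.3, 19.8, 6.91, 35.4 and 53.9 in the same order, which is the order used for all 5 values of a genotype. The 2 telencephalon libraries of culture 59 were the lowest and control cultures 60 and 61 the highest, and the genotypes overlapped. Among the others, 4 contained a RefSeq mRNA start that GENCODE did not place there. They were starts of Dtna (dystrobrevin alpha), Tln2 (talin 2, which links integrins to actin), Arhgap32 and Flrt1, a leucine-rich transmembrane protein. Another, at Gm12447, lay 36 bp from a RefSeq mRNA start, and the lowest of the 10 contained the tRNA gene n-TEttc6. An exon of Rims1, which encodes a presynaptic scaffold, held the region at chr1:22532785-22534416, with fold enrichments of 19.2 and 10.8 in brainstem controls, 4.54, 83.3 and 52.8 in telencephalon controls, and 26.5, 9.80, 4.47, 39.1 and 33.3 in the K27M libraries. It had no RefSeq start within 1000 bp, like the regions near 1520401A03Rik, Cluh and Lncppara.

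The next 3 in width lay in the bodies of Notch1, Tnr and Ptn. Notch1, the receptor that holds progenitors undifferentiated, held 13576 bp at chr2:26483029-26496604, Tnr (tenascin-R, an extracellular matrix protein) held 11063 bp, and Ptn (pleiotrophin, a ligand of PTPRZ1) held 10649 bp. The Ptn region, which contains a RefSeq start of the gene, ranged from 3.71 to 7.52 over the 10 libraries, and both the genotypes and the origins overlapped. Tnr ranged from 3.93 in brainstem control culture 59 to 19.7 in telencephalon K27M culture 61.

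RefSeq placed a transcript start within 1000 bp of 704 distal regions (6.44%) and within 5000 bp of 1474 (13.5%). The nearest such start was of a long noncoding RNA for 440 of the 704, of an mRNA for 196 and of a tRNA for 56. Regions with a RefSeq start were 3.62% of those in 2 libraries and 17.1% of those in all 10. Their median fold enrichment was higher than that of other distal regions in 10 of 10 libraries, by 0.41 ± 0.19 on the log2 scale (SD, n = 10), a ratio of 1.33 (two-sided exact sign-flip permutation test, p = 0.00195). The ratio was 1.00 in telencephalon control culture 59 and 1.16 to 1.62 in the others.

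Regions at tRNA genes were a small share of the distal regions in all 10 libraries, 49 of 1304 (3.76%), but most such regions had a peak in all 10. Of 386 autosomal tRNA genes in RefSeq, 209 lay more than 5000 bp from any GENCODE start, and 99 of those (47.4%) were within 1000 bp of a distal region, 82 of them of a region in all 10 libraries. Together 64 regions lay within 1000 bp of a tRNA gene start, and 49 of the 64 had a peak in all 10 libraries, against 11.9% of all distal regions. Their median fold enrichment per library ran from 6.50 in telencephalon control culture 59 to 19.9 in telencephalon K27M culture 61. At n-TEttc6, whose sequence is given above, values were 19.4 and 10.1 in brainstem controls, 6.44, 39.4 and 36.6 in telencephalon controls, and 22.6, 8.15, 6.83, 34.5 and 31.1 in K27M libraries, so the genotypes overlapped. tRNA genes exist in near-identical copies, and reads that map to several of them may have been placed in one or discarded, so single tRNA regions are uncertain.

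CpG island-like regions were higher than other distal regions in most libraries. Among the 1203 regions with a distal peak in all 10 libraries, the 274 island-like ones had a higher median fold enrichment than the other 929 in 8 of 10 libraries, with a mean log2 difference of 0.73 ± 0.72 (SD, n = 10), a ratio of 1.66 (same exact permutation test, p = 0.00781). The exceptions were the telencephalon libraries of culture 59, with ratios of 0.750 in control and 0.980 in K27M. The ratio was 4.43 and 2.82 in telencephalon control cultures 60 and 61 and 1.39 to 1.90 in the other 6 libraries. Without the culture 59 telencephalon pair the mean difference was 0.97 on the log2 scale. Since that pair holds the exceptions, the direction in the other 8 libraries was given in advance and adds no support.

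The question of the design was whether K27M changed these regions, and no difference between genotypes in their H3K4me3 exceeded the spread between cultures. In brainstem, 46.7% and 48.1% of distal regions had a peak in the control libraries of cultures 59 and 61, and 68.7% and 29.0% in the K27M libraries. In telencephalon the controls gave 36.5%, 46.0% and 67.7% in cultures 59, 60 and 61 and the K27M libraries 37.0%, 66.3% and 78.4%. K27M was higher in 4 of 5 pairs and lower by 19.1 percentage points in brainstem culture 61. The mean difference was 6.87 ± 16.9 percentage points (SD, n = 5 pairs, two-sided exact sign-flip permutation test, p = 0.3125, where 5 pairs allow no p below 0.0625). In brainstem the longer list went with the higher percent, with 28508 peaks in K27M against 24422 in control of culture 59 and 20279 against 23904 in culture 61. In telencephalon it did not: K27M lists held 21419, 27225 and 29969 peaks and control lists 21994, 27395 and 30413. By the study's totals the longer list of each pair, in both origins, came from the library with more reads. With every list reduced to its strongest 20279 peaks by p-value the difference was 8.03 percentage points (exact permutation p = 0.1875).

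The share of a library's peaks that were distal gave the same picture. It was 25.7% and 26.0% in brainstem controls, 32.1% and 17.9% in brainstem K27M, 21.5%, 27.6% and 31.3% in telencephalon controls and 21.7%, 30.8% and 35.0% in telencephalon K27M. The mean difference was 1.07 ± 5.61 percentage points (SD, n = 5, same exact permutation test, p = 0.6875). At the 2600 to 5794 regions where both libraries of a pair had a distal peak, the median log2 ratio of K27M to control fold enrichment averaged -0.05 ± 0.14 (SD, n = 5, same exact permutation test, p = 0.5), with pairs from -0.22 to 0.06.

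**Figure D3:**
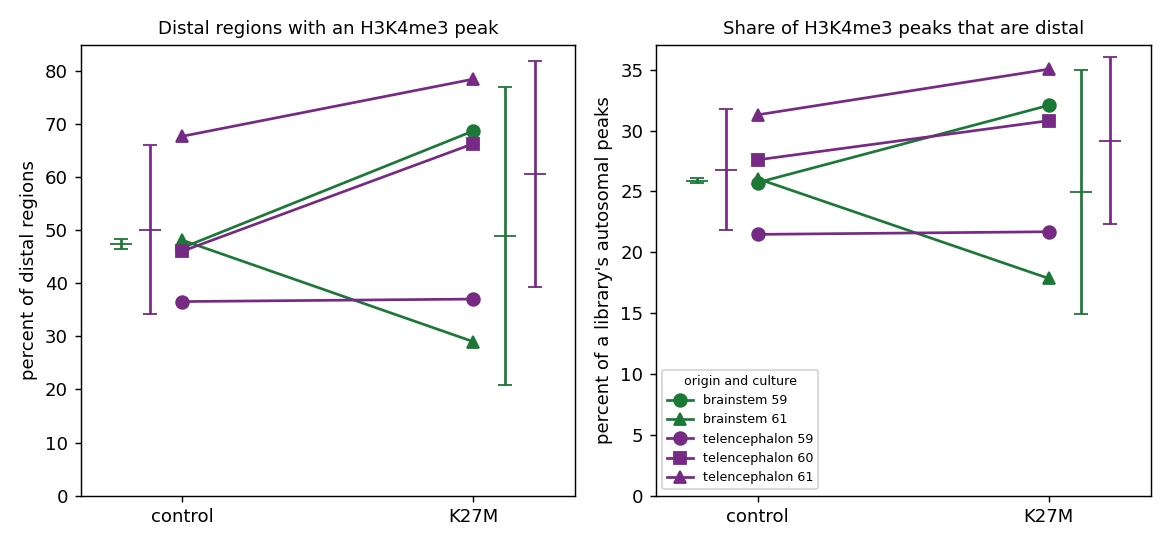
Percent of the 10931 distal regions with an H3K4me3 peak (left) and percent of a library's autosomal H3K4me3 peaks that are distal (right), control and K27M libraries of a culture joined by a line, with the mean and SD of each origin and genotype beside the points (n = 2 brainstem, n = 3 telencephalon). Brainstem culture 61 falls from 48.1% to 29.0% while the other 4 pairs are level or higher in K27M.

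Telencephalon and brainstem cultures did not differ in the percent of regions with a peak beyond their spread. The mean was 50.1% ± 15.95 (SD, n = 3) in telencephalon and 47.4% ± 0.996 (SD, n = 2) in brainstem controls (two-sided exact permutation test, p = 1). In K27M it was 60.6% ± 21.3 (SD, n = 3) and 48.8% ± 28.1 (SD, n = 2; exact permutation test, p = 0.6, where 0.1 is the smallest possible).

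Few regions separated the groups completely. Of the 10931 distal regions, 9 had a peak in every telencephalon and no brainstem library, beside 0.0367% of all autosomal H3K4me3 regions, and 3 had a peak in every brainstem and no telencephalon library, beside 0.0167%. For genotype, 8 had a peak in every K27M and no control library, beside 0.0401%, and none had the reverse, beside 0%. These counts depend on single libraries. Leaving out telencephalon culture 59 gave 130 telencephalon and 37 K27M regions, and leaving out brainstem culture 61 gave 77 brainstem and 70 K27M regions.

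The highest telencephalon region, near the long noncoding RNA gene Gm35101 at chr10:99677716-99678753, had fold enrichments of 6.26, 4.80 and 12.5 in control and 8.35, 14.3 and 26.1 in K27M cultures 59, 60 and 61. The region near Gm38139, whose sequence is above, had 7.20, 5.94 and 10.6 in control and 4.76, 11.99 and 16.3 in K27M. The region near Gm31121 had 8.39, 4.75 and 9.14 in control and 4.84, 11.2 and 10.9 in K27M. In all 3 regions the ranges of the genotypes overlapped. By pair, K27M was above its control in every culture near Gm35101. Near Gm38139 and Gm31121 it was below in culture 59 and above in cultures 60 and 61. A region in the body of Ehbp1 lay 5046 bp upstream of Otx1, which encodes a homeodomain factor of forebrain development. There the 3 control telencephalon libraries had distal peaks of 5.74, 5.22 and 4.84, and in the 3 K27M libraries the peak reached within 5000 bp of the Otx1 start. A region in an exon of Atp7b, a copper transporter gene, had 5.58, 6.86 and 17.7 in control and 4.38, 7.69 and 8.25 in K27M. The region near 4921511I17Rik had 4.80, 5.81 and 11.04 in control and 3.50, 4.45 and 5.48 in K27M. The remaining 3, named only to complete the count, lay near Gm11350, in Trerf1 and in Camkmt. The region in Camkmt also had an H3K27me3 peak in all 5 control and 3 of 5 K27M libraries, and its nearest RefSeq start, 157975 bp away, was of Six3, a forebrain transcription factor gene.

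The brainstem regions were lower. In Pdzrn4 the values were 8.00 and 3.72 in control and 3.84 and 3.40 in K27M cultures 59 and 61. The region near Gm38093 had 3.20 and 3.56 in control and 5.63 and 3.76 in K27M, and the region in Pigv, an enzyme of GPI anchor synthesis, had 3.37 and 3.15 in control and 5.72 and 3.63 in K27M. In Pdzrn4 the ranges of the genotypes overlapped, with K27M below its control in each pair. Near Gm38093 and in Pigv both K27M values were above both control values, in 2 cultures each.

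Of the regions with a peak in K27M libraries only, the highest was in an intron of Fign, a microtubule-severing ATPase gene, at chr2:64074341-64076376. Its K27M values were 8.85 and 6.51 in brainstem and 3.56, 7.54 and 9.02 in telencephalon cultures. A region at chr7:136056273-136058756 near Gm9341 had 8.56, 4.39, 5.90, 4.60 and 6.89, and one in Adgrl2, an adhesion receptor gene, had 5.86, 3.66, 5.80, 6.02 and 10.3 and an H3K27me3 peak in 1 control library. The region near Gm28822 had 4.35 and 3.83 in brainstem and 4.94, 4.67 and 5.70 in telencephalon cultures. The remaining 4, named only to complete the count, lay in Rorb, in Cox10 and near Gm22945 and Gm8960. Of the 8, 7 had no H3K27me3 peak in any control library, near the share of all distal regions without one, 9185 of 10931 (84.03%, beside 75.3% of all autosomal H3K4me3 regions). Within pairs, 79 regions were seen in the K27M library alone in 4 pairs and never in the control alone, beside 0.361% of all autosomal H3K4me3 regions, and 5 were seen in the control alone in 4 pairs and never in the K27M library alone, beside 0.0635%. More regions were seen in K27M alone than in control alone in 4 of 5 pairs, with 3256 against 852 and 486 against 2575 in brainstem and 1156 against 1105, 3435 against 1222 and 2563 against 1387 in telencephalon.

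**Figure D4:**
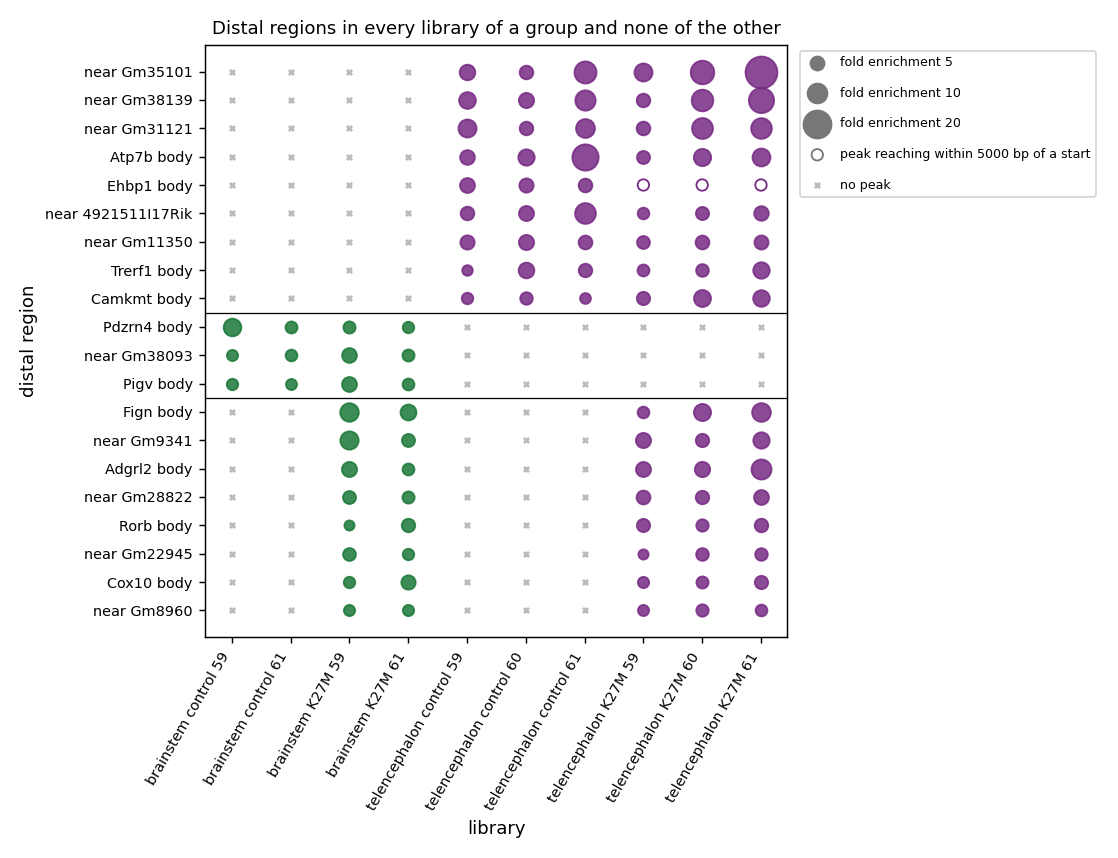
Fold enrichment at the 20 distal regions with a peak in every library of a group and none of the other, one row per region named by the gene whose body holds it or whose start is nearest, one column per library, with filled point area in proportion to fold enrichment. From top to bottom the blocks are 9 telencephalon, 3 brainstem and 8 K27M regions. Crosses mark no peak, and open circles a peak that reaches within 5000 bp of a start.

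H3K27me3, a mark that the rule did not use, was lower at distal regions in K27M cultures in every pair. Among brainstem cultures, 11.3% (culture 59) and 6.57% (culture 61) of distal regions overlapped an H3K27me3 peak in control, and 3.30% and 3.60% did in K27M. Telencephalon controls had 4.31%, 11.1% and 10.9%, and their K27M partners 2.23%, 4.06% and 3.39%. All 5 K27M libraries were below all 5 control libraries. The difference was -5.53 ± 2.78 percentage points (SD, n = 5 pairs) and lower in 5 of 5 (two-sided exact sign-flip permutation test, p = 0.0625, the smallest that 5 pairs allow). With labels permuted within each origin in place of pairs, the exact permutation p was 0.0167. The H3K27me3 peak lists as a whole covered 26.2 to 106 Mb in controls and 12.5 to 23.1 Mb in K27M. Peak calls used no spike-in scaling.

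The size of this difference against promoter-proximal regions depended on the scale. Promoter-proximal regions went from 25.1% and 16.2% in brainstem controls to 11.8% and 12.6% in K27M, and from 11%, 23.2% and 24.9% in telencephalon controls to 8.27%, 13.3% and 12.2%. In percentage points the distal difference was smaller, by 2.93 ± 2.32 (SD, n = 5, exact sign-flip permutation p = 0.0625). As a ratio of K27M to control it was larger, 0.393 on average at distal and 0.599 at promoter-proximal regions, and the distal ratio was below the promoter-proximal ratio in 5 of 5 pairs (exact permutation p = 0.0625).

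**Figure D5:**
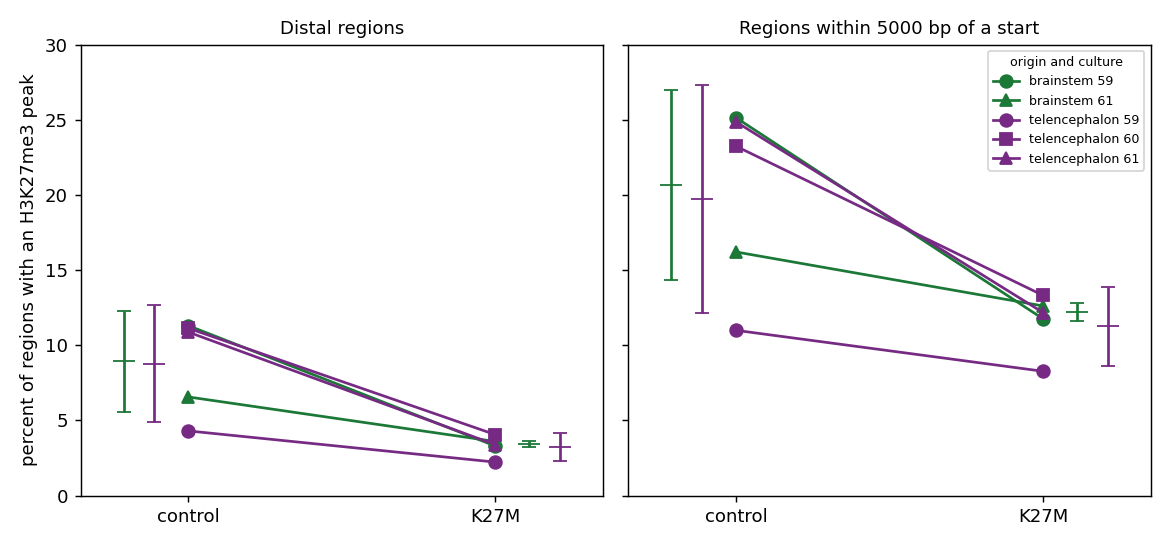
Percent of distal regions (left) and of regions within 5000 bp of a transcript start (right) that overlap an H3K27me3 peak, control and K27M libraries of a culture joined by a line, with the mean and SD of each origin and genotype beside the points (n = 2 brainstem, n = 3 telencephalon). All lines fall from control to K27M, at distal regions from between 4.31% and 11.3% to between 2.23% and 4.06%.

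Distal regions with both marks were CpG-rich. In all 5 control libraries 336 distal regions (3.07%) had an H3K27me3 peak, beside 7.74% of all autosomal H3K4me3 regions. Their median was 4.67 CpGs per 100 bp and 43.5% were CpG island-like, against 1.67 and 3.58% of the 9185 regions with H3K27me3 in no control. Of the 336, 190 (56.5%) had an H3K27me3 peak in all 5 K27M libraries as well, 120 in some and 26 (7.74%) in none. Of all autosomal H3K4me3 regions, 2317 had H3K27me3 in all 5 controls, 1648 of them also in all 5 K27M libraries and 88 in none. As shares of all distal regions, the 190 were 1.74% and the 26 were 0.238%, beside 5.51% and 0.294% of all autosomal H3K4me3 regions. Among the 190, 120 and 26 regions, 56.3%, 28.3% and 19.2% were CpG island-like. Their median CpG density was 5.67, 3.50 and 2.67 per 100 bp. No distal region had H3K27me3 in all 5 K27M libraries and in no control, beside 0% of all regions.

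The highest of the 336 in H3K4me3 lay 32 bp from a RefSeq start of the long noncoding RNA gene Gm13067, with a median fold enrichment of 17.3. Upstream of Cbx8, whose protein binds H3K27me3 within Polycomb complexes, fold enrichments were 17.3 and 10.3 in brainstem controls, 3.30, 98.7 and 53.9 in telencephalon controls, and 17.8, 7.72, 3.67, 28.0 and 17.1 in K27M libraries. A region in an exon of Asb18, 36596 bp upstream of Gbx2, a homeobox gene of the midbrain-hindbrain boundary, had 14.02, 7.31, 2.26, 82.3 and 45.5 in controls and 16.6, 12.3, 3.06, 28.1 and 28.4 in K27M. Both kept H3K27me3 in all 5 K27M libraries, and so did the regions near Gm13067, Shank2 and Igf2bp1, the last with H3K4me3 in 2 libraries. The Shank2 region contained a RefSeq mRNA start of that gene. The region at the RefSeq start of Slc35f3 kept it in 4. In each of those with H3K4me3 in all 10 libraries the genotypes overlapped, and the culture 59 telencephalon libraries were lowest.

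The gene lists below were chosen with earlier results of these data known. Of 30 transcription factors of the oligodendrocyte lineage, 22 had a distal region in the gene body or as its nearest gene (73.3%, beside 18.6% of all 20779 protein-coding genes), 124 regions in all. Regions in the bodies of these genes numbered 2.65 per 100 kb, against 0.589 per 100 kb over all protein-coding gene bodies. All 5 lists lay above that value, with 2.43 for hindbrain and spinal patterning genes, 1.72 for OPC surface, matrix and signalling genes, 1.46 for forebrain patterning genes and 1.346 for myelin genes. The lineage factors with most regions were Nfia (18), Nfib (15), Tcf4 (14), Sox6 (13) and Nfix and Sox5 (11 each), of which Nfia, Nfib and Nfix are nuclear factor I genes of gliogenesis. An intron of Sox5, a SOXD factor that restrains OPC differentiation, held the highest at chr6:144179674-144182257, with 8.96 and 10.6 in brainstem controls, 15.4, 20.3 and 11.6 in telencephalon controls, and 18.6, 13.7, 18.96, 15.02 and 27.3 in K27M libraries. The ranges of the genotypes overlapped, and K27M was above its control in every pair but telencephalon culture 60. Its culture 59 telencephalon values were not the lowest, unlike those at the Lncppara region above. Its window held 1.00 CpG per 100 bp, and that of the Lncppara region 1.33. Regions in Tcf4 (median 11.4), Zfp536 (11.4) and Nfib (11.2) followed. Near Olig2 and in Sox10, factors that define the lineage, there were 3 regions each, at medians of up to 3.77 and 4.14.

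Of 25 genes of OPC surface, matrix and signalling, 17 had 127 distal regions, with none overlapping H3K27me3 in any library, beside 1752 of all 10931 distal regions and 24.8% of all autosomal H3K4me3 regions. Xylt1, a xylosyltransferase that starts glycosaminoglycan chains on proteoglycans, had 33, of which 32 were in its body, at 10.9 per 100 kb. Cspg4, the NG2 proteoglycan, had 4 in 34.8 kb, at 11.5 per 100 kb, and Ptprz1 had 12. The highest were in Nxph1 (median 9.52) and Tnr (8.42 and, in 2 libraries, 8.17) and near Neu4, a sialidase gene (8.25). Pdgfra had 2, at medians of up to 3.36. Of 22 myelin genes, 10 had 22 regions, among them one in Mbp and a pair near Nfasc, with medians of 6.14, 6.13 and 6.12. The region in Mbp had a peak in telencephalon controls 60 and 61 and in no other library.

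Regions of patterning genes included many with H3K27me3. Of 20 forebrain genes 7 had 19 regions (35.0%), and 10 of the 19 overlapped H3K27me3 in a control library, beside 1746 of all 10931 distal regions (15.97%) and 24.7% of all autosomal H3K4me3 regions. The highest were a pair near Dlx2 (medians 12.4 and 10.3) and one near Tbr1 (9.88), which had H3K27me3 in all 10 libraries, and one in Bcl11b (8.89). Of 31 hindbrain and spinal genes 11 had 46 regions, and 23 of the 46 overlapped H3K27me3 in a control library and 23 in a K27M library, the latter beside 554 of all 10931 distal regions (5.07%) and 11.5% of all autosomal H3K4me3 regions. These regions cluster in few genes, and the difference from other regions was not tested. The highest were the Gbx2 region above (15.3), one near Meis2 (13.04), one in Pbx3 (12.2) and one near Pax3 (12.1). None of the 14 listed Hox genes had a distal region.

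Over all protein-coding genes, the most distal regions, chosen after their values were seen, were in Gm20388 (52 in 4435 kb), Xylt1 (32), Msi2 (26) and Fyn and Npas3 (22 each). Gm20388 spans several other genes, so its regions are theirs as well. Per length the densest of the 15 genes with most regions was Qk, which encodes an RNA-binding protein of myelination, with 20 regions at 17.1 per 100 kb, followed by Fyn, a kinase of oligodendrocyte maturation, at 11.2.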

How the data were processed

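Peak lists were taken from 20 ChIP-seq libraries, 10 for each mark. Inputs, signal tracks and other assays were not used here. Per the submitters' processing notes, reads were trimmed with Trim Galore (0.6.7), aligned to mm10 with BWA (0.7.17-r1188) and peaks called with MACS2 (2.2.7.1). The authors' pipeline left out reads in blacklisted regions and made narrow calls for H3K4me3 and broad calls for H3K27me3, each library with its own input. The deposited fold enrichment is a linear ratio, and the deposited −log10 of the p-value and q-value served to rank or filter peaks. The deposited score was not used.

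Distances were taken to GENCODE M21 transcript starts on GRCm38, and sequences and further starts from RefSeq GRCm38.p6. Intervals overlapping by at least 1 bp counted as shared. Merging, overlap and exact tests were done in Python 3.11.15 with numpy 2.4.6 and tested on simulated peaks. Tests were two-sided and exact: sign flips over 5 matched cultures or 10 libraries, and splits of 2 against 3 cultures. Replicates are separate cultures of pooled mice, and matched control and K27M cultures were assayed together per the study's methods. Same-numbered control and K27M libraries of telencephalon cultures deviated together with correlations of 0.0925 to 0.259, those of brainstem with -0.0798. Named regions were those of highest median fold enrichment in each class: 10 in all libraries, 6 per origin, 4 per genotype, 6 with H3K27me3 in all controls, the 4 widest and 4 per gene list. A named region of the myelin list is not reported here. Members and lists were chosen with earlier results of these data known, and the RefSeq, tRNA and CpG island comparisons after the data were seen. Alternatives were another distance, a stricter peak threshold, 3 libraries, equal peak numbers, cultures left out and no pairing.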

Additional observations from a re-analysis of the deposited data

How the results depend on the processing

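Of 142 alternative values, 114 were called the same as the main value. For a tested value this meant the same direction and side of the threshold. For a count or an untested difference it meant a value within a set range of the main one. The 2 tests over 10 libraries (height and width of distal against promoter-proximal peaks) held under every alternative run. Tests over 5 pairs have a smallest p of 0.0625 and say nothing about stability. The files hold no read counts, so no value was corrected for depth, and a peak not called says only that it was not detected in that library.

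Without the replicate block (labels permuted within origin), the H3K27me3 difference of -5.53 points passed the threshold (exact permutation p = 0.0167), and the block changed no other call. With the block over cultures 59 and 61, telencephalon minus brainstem was 4.72 points in control and 8.89 in K27M. Same-numbered libraries did not deviate together in brainstem (r = -0.0798).

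Telencephalon minus brainstem in controls turned to -0.89 points with at least 3 libraries and to -5.37 with equal numbers of peaks, and ranged from -11.0 to 10.1 with a culture left out (in K27M -6.98 to 33.8). The K27M difference in distal share ranged from -0.25 to 3.38 points with a culture left out. As a log2 ratio in place of percentage points, chosen after the data were seen, the H3K27me3 change against promoter-proximal regions was -0.61 in place of 2.93 points. The cause was not tested.

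The number of distal regions was 6424 with equal numbers of peaks. Counts of fully separated regions moved most. Telencephalon regions were 5 beyond 10000 bp, and 11 to 130 with a culture left out. Brainstem regions were 0 at a −log10 q of at least 5, 5 with equal numbers, and 3 to 77 with a culture left out. K27M regions were 5 at that threshold and 14 to 70 with a culture left out. Control regions were 1 with equal numbers, 1 when only peaks over 5000 bp from a start counted (chosen after the data were seen), and 0 to 3 with a culture left out. Fewer libraries must be with or without a peak when a culture is left out.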
